A study of Mus musculus with 24 samples.

Results

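The S100 genes described here, S100a1, S100a4, S100a6, S100a8, S100a9, S100a10, S100a11, S100a13, S100a14 and S100a16, were taken by symbol and make up 10 of the 23478 gene symbols in the count table of 4T1-T mouse mammary carcinoma cells. S100 proteins are small calcium sensors with paired EF-hand motifs, most of which act as dimers that grip partner proteins such as annexins when calcium rises. Several also leave the cell and act on surface receptors. In tumors they are best known through S100A4, which is tied to metastasis, S100A10, which with annexin A2 holds plasminogen at the cell surface, and the S100A8 and S100A9 pair (calprotectin), which is abundant in neutrophils.

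Each library came from 4T1-T cells infected with a short-hairpin RNA, either shRenilla, a control, or shAsns-1 or shAsns-2, both directed at Asns, the gene for asparagine synthetase. The cells had been recovered from primary tumors or lung metastases, and all 6 groups, controls included, shared selection with 6-thioguanine (6TG) and growth in DMEM with non-essential amino acids. There were 4 libraries, lettered A to D, for each site and hairpin. No label says whether a letter stands for a mouse, a culture or a preparation; the p-values below reflect only how much these libraries vary, and that variation may be technical. Mouse strain and age are not given in the labels, and cells were cultured after recovery, so levels are those of cultured cells and not of tissue.

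Library totals ran from 8.48 to 38 M counts (median 28.7). The Asns level went against its label in the shAsns-1 libraries: it averaged 170 ± 17.1 CPM (counts per M counts of the library, after TMM scaling; mean ± SD, n = 4 in each group here and below) in tumor and 194 ± 18.2 CPM in lung, against 82.8 ± 15.9 and 63.6 ± 7.89 CPM in shRenilla, while shAsns-2 had 36.8 ± 10.3 and 44.6 ± 6.51 CPM. The libraries labelled shAsns-1 are therefore named by label throughout, and their differences are differences between labels, not effects of lowering Asns. Library B of lung shRenilla and library D of lung shAsns-2 stood apart from their groups, with a mean correlation to the other libraries of the group of 0.981 and 0.982 and at least 0.985 for the others. Genes with transcripts under 1000 bases, a class that holds 9 of the 10 S100 genes, took 8.09% of counts in lung shRenilla B and 11% in lung shAsns-2 D. The other libraries of these groups had 11.7 to 12.5% and 12.6 to 13%, tumor shRenilla and tumor shAsns-2 reached down to 11.1% and 11.2%, and the tumor libraries labelled shAsns-1 had 13.2 to 14.4%. All 11 markers of carcinoma epithelium were detected in every group, with summed levels of 906 ± 76.8 CPM in tumor shRenilla and 569 ± 80.3 CPM in lung shRenilla. The markers did not differ alike between sites. Over all tumor and all lung libraries, Krt18 averaged 250 and 285 CPM, the only marker higher in lung, and Krt8 199 and 193 CPM. Cdh1 averaged 169 and 29.3 CPM and Epcam 74.2 and 17.5 CPM. The 7 markers of lung epithelium, surfactant genes among them, summed to at most 0.405 CPM in any library.

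Levels differed widely among the S100 genes. Per kilobase of transcript, the mean level over the 24 libraries was 6330 CPM for S100a6, 2490 for S100a4, 2020 for S100a10 and 1470 for S100a11. S100a1 followed at 104 and S100a13 at 64.6 CPM per kilobase, then S100a8 at 8.35, S100a16 at 3.39, S100a14 at 0.247 and S100a9 at 0.0157. A filter on low counts left 9 of the 10 for testing, S100a9 being the exception, among 12625 tested genes in all. The 10 genes lie on chromosome 3 (build GRCm38.p6). Of these, 8 sit between positions 90511034 and 90695721, from S100a1 to S100a9, and S100a11 (93520496 to 93526288) and S100a10 (93555117 to 93564645) lie farther along.

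**Figure D1:**
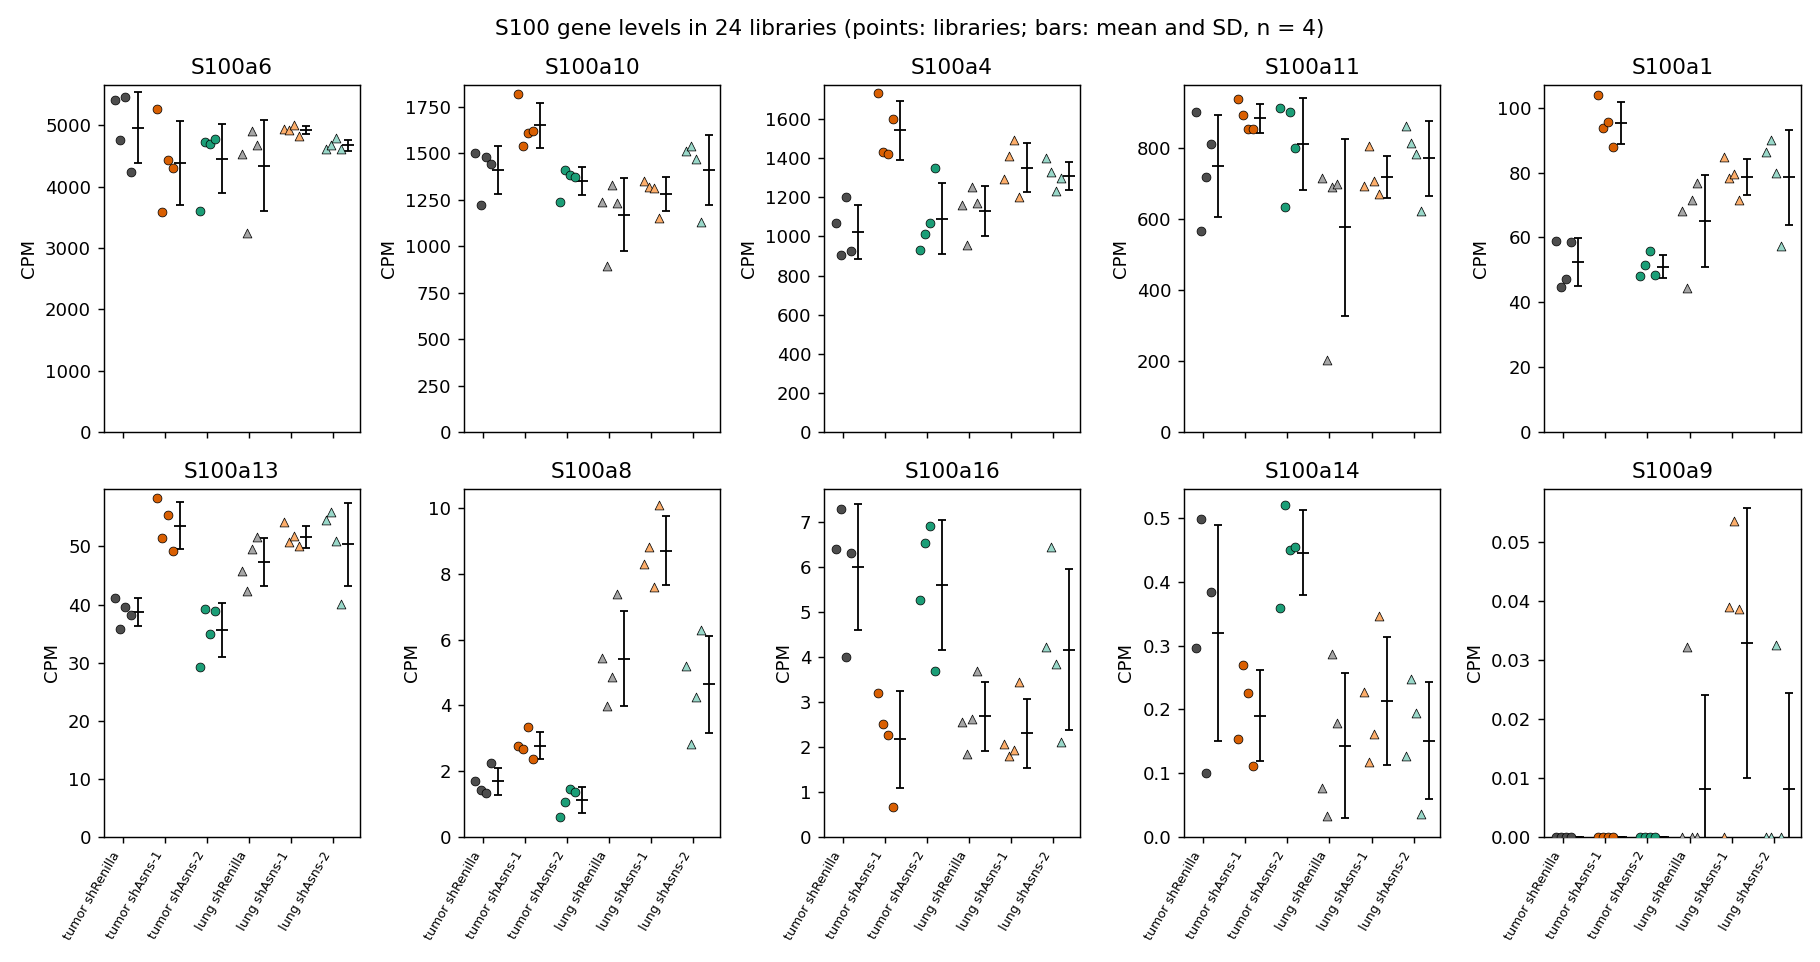
Levels of the 10 S100 genes in CPM (vertical axes, linear, each from 0) by site and hairpin; points are single libraries and bars beside them are the mean and SD of 4 libraries. The mean of S100a8 is higher in every lung group (4.64 to 8.71 CPM) than in every tumor group (1.12 to 2.77 CPM), and S100a1 is highest in the tumor libraries labelled shAsns-1.

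S100A8 and S100A9 form calprotectin, a heterodimer that binds calcium, zinc and manganese and is released by neutrophils and by stressed epithelium. In these cells S100a8 was present at a low level in all 24 libraries and S100a9 was close to absent. The sequences upstream of both are shown because TATAAA, the core letters of a TATA box, lies at different positions from their listed starts. Each run goes from 250 bases before the listed start to 30 bases after it (RefSeq, GRCm38.p6), and capitals mark TATAAA. S100a8 lies at chr3:90668821-90669100 on the plus strand and S100a9 at chr3:90695692-90695971 on the minus strand.
S100a8: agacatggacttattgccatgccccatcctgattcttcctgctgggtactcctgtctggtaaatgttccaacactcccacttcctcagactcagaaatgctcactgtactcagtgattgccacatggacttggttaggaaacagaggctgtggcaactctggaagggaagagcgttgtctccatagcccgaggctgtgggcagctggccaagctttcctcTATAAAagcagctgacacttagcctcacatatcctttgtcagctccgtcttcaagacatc
S100a9: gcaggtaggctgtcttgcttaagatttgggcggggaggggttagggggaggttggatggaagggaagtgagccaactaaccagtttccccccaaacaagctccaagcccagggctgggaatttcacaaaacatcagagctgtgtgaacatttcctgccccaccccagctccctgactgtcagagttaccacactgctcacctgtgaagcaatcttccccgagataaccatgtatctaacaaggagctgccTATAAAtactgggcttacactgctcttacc

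In S100a8 the TATAAA match began 30 bases before the start. In S100a9 it began at base 1 of the listed transcript. Whether transcription begins at the listed starts was not tested, so the different positions may lie in the annotation. TATAAA on either strand occurred in 13.6% of 32851 RefSeq windows from 250 bases before to 50 bases after a start. A C/EBP-type match (TTGCNNAA, both strands, in 10.8% of windows) was found for S100a9 at 236 bases before the start, and none was found for S100a8. These are matches of letters and not measured binding.

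In tumor-derived cells S100a8 measured 1.71, 1.43, 1.33 and 2.24 CPM in shRenilla libraries A to D. In tumor shAsns-2 it measured 0.598, 1.07, 1.46 and 1.37 CPM. The tumor libraries labelled shAsns-1 had 2.75, 2.66, 3.33 and 2.36 CPM. The shRenilla and shAsns-2 values overlapped, and the values labelled shAsns-1 lay above both.

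In lung-derived cells S100a8 measured 5.45, 3.98, 4.87 and 7.39 CPM in shRenilla. It measured 5.19, 2.82, 4.26 and 6.29 CPM in lung shAsns-2. It measured 8.3, 8.83, 7.6 and 10.1 CPM in the lung libraries labelled shAsns-1. Under each hairpin all 4 lung libraries lay above all 4 tumor libraries. The lung libraries labelled shAsns-1 lay above every other library.

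S100a8 was higher in lung than in tumor under all 3 hairpins. The log2 fold change was 1.69 ± 0.23 (SE) in shRenilla (edgeR adjusted p = 4.64e-06), a 3.24-fold higher level. The libraries labelled shAsns-1 gave 1.65 ± 0.22 (edgeR adjusted p = 4.39e-05), and the change was 1.95 ± 0.25 in shAsns-2 (edgeR adjusted p = 2.42e-06). Each of the 3 calls held in 17 of 17 alternative fits. The hairpins' site changes were not called different from each other (log2 difference -0.05 ± 0.31 between the label shAsns-1 and shRenilla, edgeR adjusted p = 0.938, and 0.26 ± 0.34 between shAsns-2 and shRenilla, edgeR adjusted p = 0.972). Counts behind these values ran from 5 to 284 per library.

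Between hairpins in tumor, S100a8 was higher in the libraries labelled shAsns-1 than in shAsns-2 (1.22 ± 0.26, edgeR adjusted p = 0.000994) and than in shRenilla (0.73 ± 0.24, edgeR adjusted p = 0.0205). The call against shRenilla ended with counts thinned to the smallest library (adjusted p = 0.354), without tumor shAsns-1 C (0.0795), without tumor shRenilla B (0.0695) and without tumor shRenilla C (0.0764). In lung, S100a8 in the libraries labelled shAsns-1 did not overlap with shAsns-2 (0.91 ± 0.21, edgeR adjusted p = 0.0683) or shRenilla (0.68 ± 0.21, edgeR adjusted p = 0.244), and neither was called. The first was called in 7 of 17 alternatives, among them the fit without lung shAsns-2 D (adjusted p = 0.0243), and the second in 1, limma with library weights (adjusted p = 0.035).

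S100a9 had 6 counts in total. They fell in 5 lung libraries: 1, 2 and 1 in those labelled shAsns-1 B, C and D, 1 in shAsns-2 C and 1 in shRenilla B. All 12 tumor libraries had 0, and 3 counts in the smallest library would correspond to 0.354 CPM. S100a9 was thus at or below the counting floor everywhere and no fold change is given.

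Neutrophils, which carry both calprotectin transcripts in abundance, left little trace in the libraries. The 11 neutrophil markers in the table summed to 1.3 to 3.56 CPM per library. Group means were 2.59, 2.13 and 2.75 CPM in tumor (shRenilla, the label shAsns-1, shAsns-2) and 2.13, 2.33 and 1.96 CPM in lung. Most of the sum was Cxcr2, a chemokine receptor gene, at 2.05 CPM in tumor and 1.5 CPM in lung. The granule genes Elane (1 count in all), Camp (7), Ngp (11), Ltf (12) and Mpo (32) were at or near 0. Markers of macrophages and monocytes summed to 9.78 to 14.3 CPM in tumor and 13.7 to 21.6 CPM in lung (8 of 9 in the table). This sum was mostly Mrc1, for a mannose receptor, at 9.15 CPM in tumor and 11.9 CPM in lung. Lyz2, for lysozyme, averaged 0.291 CPM in tumor and 2.23 CPM in lung, with a highest value of 7.84 CPM. Cd68 (1.95 CPM in tumor and 2.06 CPM in lung), Fcgr1 (0.0764 and 0.112), Ly6c2 (0.101 and 0.223) and Tyrobp (0.00278 and 0.0732) were also higher in lung. Csf1r (0.241 CPM in tumor and 0.0863 CPM in lung) went the other way, and Marco had 1 count in all. Fibroblast markers summed to 15.6 to 32.3 CPM in tumor and 23.8 to 69.8 CPM in lung. On average most of it was Pdgfra, for a growth factor receptor, at 20.2 CPM in tumor and 29.7 CPM in lung. Every fibroblast marker averaged higher in lung, among them Dcn (0.517 CPM in tumor and 2.05 CPM in lung) and Col3a1 (0.0323 and 1.09). The 69.8 CPM was in the lung library labelled shAsns-1 D, which also had the highest S100a8 level, 10.1 CPM. The next highest sum, 51.2 CPM in lung shRenilla B, came with 3.98 CPM of S100a8, the lowest of its group. The part of macrophage and fibroblast RNA in the S100a8 difference was not tested, and in such bulk libraries fewer cells of a type and less RNA per cell cannot be told apart.

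**Figure D2:**
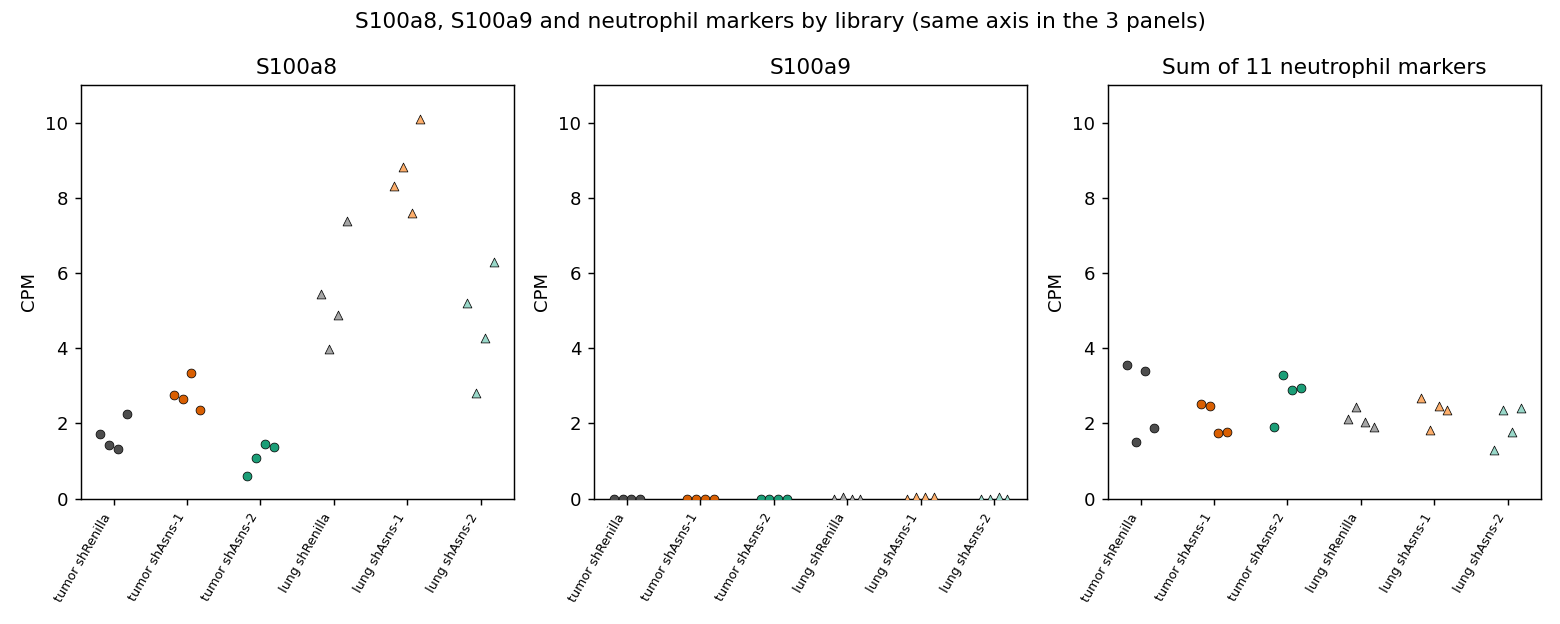
S100a8, S100a9 and the summed neutrophil markers in CPM (vertical axis, the same in the 3 panels) by site and hairpin, with points for single libraries. S100a8 reaches 10.1 CPM in lung while S100a9 stays at 0.0535 CPM or less and the marker sum runs from 1.3 to 3.56 CPM at both sites.

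S100A1, known from heart and skeletal muscle where it acts on calcium release and uptake, and S100A13, which takes part in the release of fibroblast growth factor 1, are encoded next to each other in opposite directions. The starts of their RefSeq start windows are 105 bases apart, at 90514330 for S100a1 (minus strand) and 90514435 for S100a13 (plus strand). The RefSeq span of the S100a13 gene begins earlier, at 90514233, inside the span of S100a1, so S100a13 also has a listed start outside this stretch. The stretch between the starts is shown because the members of this pair moved together; capitals run from the S100a1 start to the S100a13 start, with 30 bases on either side, at chr3:90514300-90514465, plus strand (RefSeq, GRCm38.p6).
S100a1 and S100a13: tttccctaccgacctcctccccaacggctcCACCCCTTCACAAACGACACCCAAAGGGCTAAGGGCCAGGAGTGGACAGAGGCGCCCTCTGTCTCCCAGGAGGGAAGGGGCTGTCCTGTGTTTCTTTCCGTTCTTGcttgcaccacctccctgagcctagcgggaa

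Neither of the start windows of S100a1 and S100a13 held TATAAA, an AP-1 match (TGANTCA), a C/EBP match (TTGCNNAA), CACCTG or CCAAT on either strand. The shares of all windows with a match were 13.6%, 7.81%, 10.8%, 20.2% and 37.4% in that order. In RefSeq the spans of both genes overlap at their 5′ ends, and whether the counting used strand is not given in the sources used here, so reads from the overlap could have been assigned to either or dropped.

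In tumor, S100a1 measured 58.9, 44.7, 47.3 and 58.7 CPM in shRenilla. It measured 48, 51.4, 55.8 and 48.6 CPM in shAsns-2. The libraries labelled shAsns-1 had 104, 93.6, 95.7 and 87.9 CPM. The last group stood apart from the other tumor libraries, which overlapped each other.

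In lung, S100a1 measured 68.1, 44.3, 71.5 and 76.7 CPM in shRenilla, lowest in library B. In shAsns-2 it measured 86.3, 90, 80 and 57.5 CPM, lowest in library D. In the lung libraries labelled shAsns-1 it measured 84.9, 78.4, 79.5 and 71.5 CPM. The 3 lung groups overlapped, and the low values of shRenilla and shAsns-2 fell in the libraries with the smallest share of counts from short transcripts in their groups.

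S100a1 was higher in the tumor libraries labelled shAsns-1 than in tumor shRenilla (0.86 ± 0.14, edgeR adjusted p = 4.21e-05, 1.82-fold) and than in tumor shAsns-2 (0.90 ± 0.14, edgeR adjusted p = 3.83e-05). It was higher in lung than in tumor with shAsns-2 (0.62 ± 0.14, edgeR adjusted p = 0.00243). These 3 calls held in 17 of 17 alternatives each. In shRenilla the lung level was not called different (0.31 ± 0.14, edgeR adjusted p = 0.116), and was called without lung shRenilla B (0.47, adjusted p = 0.00658). Under the label shAsns-1, lung lay below tumor without overlap and was not called (-0.28 ± 0.14, edgeR adjusted p = 0.215). The difference between the label shAsns-1 and shRenilla was smaller in lung than in tumor (-0.59 ± 0.20, edgeR adjusted p = 0.0472), a call that held in 10 of 25 alternatives (highest adjusted p 0.112). It was lost without any of 14 of the 16 libraries left out in turn, and held without tumor shRenilla D (adjusted p = 0.0387) and without lung shRenilla B (0.0037).

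S100a13 followed the same order at a lower level. In tumor it measured 41.2, 35.7, 39.6 and 38.2 CPM in shRenilla. It measured 29.3, 39.3, 35 and 38.8 CPM in shAsns-2. In the libraries labelled shAsns-1 it measured 58.4, 51.4, 55.4 and 49.3 CPM, above all other tumor libraries.

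In lung, S100a13 measured 45.8, 42.3, 49.6 and 51.6 CPM in shRenilla. It measured 54.6, 56, 50.9 and 40.1 CPM in shAsns-2. It measured 54.3, 50.7, 51.8 and 50 CPM in the lung libraries labelled shAsns-1. The 3 lung groups overlapped, and the shRenilla values lay above those of tumor shRenilla.

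S100a13 was called higher in tumor libraries labelled shAsns-1 than in shRenilla (0.47 ± 0.11, edgeR adjusted p = 0.00125) and than in shAsns-2 (0.58 ± 0.11, edgeR adjusted p = 0.000218). It was higher in lung than in tumor with shAsns-2 (0.49 ± 0.11, edgeR adjusted p = 0.00142). All 3 calls held in 17 of 17 alternatives. In shRenilla, lung against tumor fell just outside the threshold (0.29 ± 0.11, edgeR adjusted p = 0.0502) and was called in 5 of 17 alternatives, including the fit without lung shRenilla B (0.36, adjusted p = 0.0173).

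Over the 24 libraries S100a1 and S100a13 had a Pearson correlation of log2 CPM of 0.89, of 0.72 once group means were removed and of 0.92 without the 2 lung libraries that stood apart. The libraries share their depth and composition, so this is a description. The ratio of S100a1 to S100a13 counts was 1.78 (1.73 to 1.82) in the tumor libraries labelled shAsns-1, 1.35 (1.19 to 1.54) in tumor shRenilla and 1.45 (1.25 to 1.64) in tumor shAsns-2. In lung the ratio was 1.37 (1.05 to 1.49) in shRenilla, 1.52 (1.43 to 1.56) in the label shAsns-1 and 1.55 (1.43 to 1.61) in shAsns-2. The ratio of the first group did not overlap with that of any other.

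**Figure D3:**
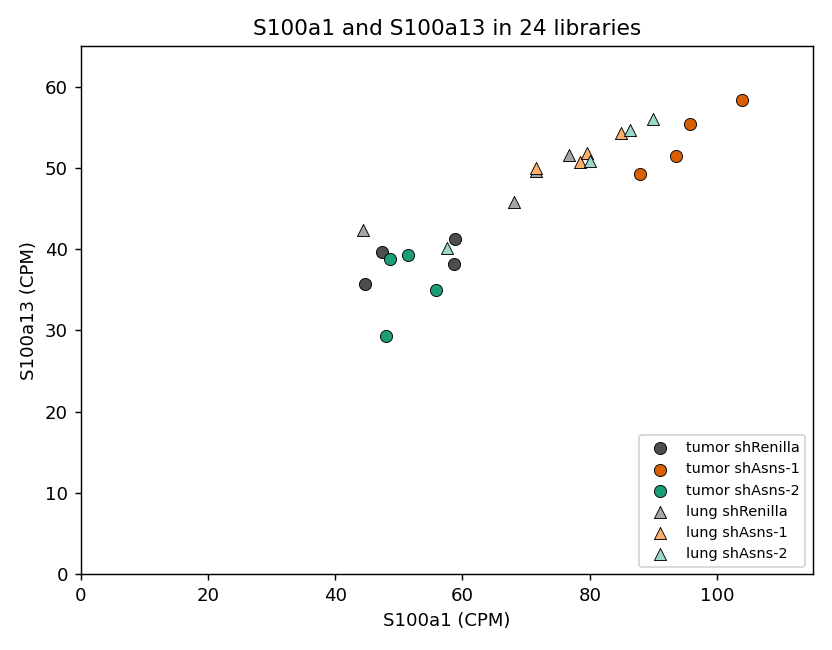
S100a1 (horizontal axis, CPM) against S100a13 (vertical axis, CPM) in the 24 libraries, both axes linear and from 0; circles are tumor, triangles lung and colors hairpins. The tumor libraries labelled shAsns-1 lie at 87.9 to 104 CPM of S100a1, above the other tumor libraries at 44.7 to 58.9 CPM.

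S100A4 binds non-muscle myosin IIA and alters cell motility, and is widely used as a marker of metastatic and mesenchymal cells. Its start region is shown because, like S100a8, it carries TATAAA (capitals), here 31 bases before the start, at chr3:90603520-90603799 on the plus strand (RefSeq, GRCm38.p6).
S100a4: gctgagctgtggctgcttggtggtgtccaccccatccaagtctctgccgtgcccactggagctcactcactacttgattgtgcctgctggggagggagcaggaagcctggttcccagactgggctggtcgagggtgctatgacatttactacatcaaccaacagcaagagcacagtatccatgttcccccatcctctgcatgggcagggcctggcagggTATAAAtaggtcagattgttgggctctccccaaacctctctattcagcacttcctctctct

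In tumor, S100a4 measured 1070, 903, 1200 and 924 CPM in shRenilla. It measured 928, 1010, 1070 and 1350 CPM in shAsns-2. In the libraries labelled shAsns-1 it measured 1730, 1430, 1420 and 1600 CPM, above every other tumor library. In lung the ranges were 954 to 1250 CPM in shRenilla, 1230 to 1400 CPM in shAsns-2 and 1200 to 1490 CPM in the label shAsns-1, which overlapped. S100a4 was higher in the tumor libraries labelled shAsns-1 than in tumor shRenilla (0.59 ± 0.12, edgeR adjusted p = 0.00048, 1.51-fold) and than in tumor shAsns-2 (0.50 ± 0.12, edgeR adjusted p = 0.00314). Both calls held in 17 of 17 alternatives. Lung against tumor was not called under any hairpin by edgeR: the log2 fold change was 0.15 ± 0.12 in shRenilla (adjusted p = 0.418), -0.20 ± 0.12 in the label shAsns-1 (0.316) and 0.27 ± 0.12 in shAsns-2 (0.116). The last was called in 2 of 17 alternatives, limma and the fit without tumor shAsns-2 D.

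Marker sums moved with these differences in tumor. Carcinoma epithelium markers summed to 544 ± 66.8 CPM under the label shAsns-1, 906 ± 76.8 in shRenilla and 1070 ± 66.4 in shAsns-2. Fibroblast markers summed to 28.8 ± 3.68, 16.9 ± 1.04 and 18.2 ± 1.92 CPM in the same order, with 6 of 9 detected in the first group and all 9 in tumor shRenilla. Nearly all of this sum was Pdgfra, at 20.2 CPM over the tumor libraries. Dcn averaged 0.517 CPM there, Col1a2 0.49 CPM and every other fibroblast marker 0.0323 CPM or less. These means cover all tumor libraries together, and single fibroblast markers are not given by hairpin here. Short transcripts held 13.7%, 12.1% and 11.8% of counts. The part of epithelial and fibroblast RNA in the S100a1, S100a4 and S100a13 differences was not tested. With offsets for transcript length and GC content the log2 fold changes of S100a1, S100a4 and S100a13 against tumor shRenilla were 0.80, 0.58 and 0.40, all called.

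S100A6, S100A10 and S100A11 are broadly expressed partners of annexins. S100A6 (calcyclin) also binds the ubiquitin-ligase adaptor CACYBP, S100A10 stays in its active shape without calcium, and S100A11 takes part with annexin A1 in membrane traffic and repair. These 3 abundant genes were called in none of the 11 comparisons by edgeR. Limma called S100a10 higher in lung shAsns-2 than in lung shRenilla (adjusted p = 0.0118).

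S100a6, the highest of the family, averaged 4960 ± 580 CPM in tumor shRenilla, 4390 ± 685 in the tumor label shAsns-1 and 4450 ± 562 in tumor shAsns-2. In lung the means were 4340 ± 742, 4920 ± 72.1 and 4670 ± 87.1 CPM in the same order. Values overlapped between sites and between hairpins within tumor; in lung all 4 libraries labelled shAsns-1 (4830 to 5010 CPM) lay above all of shAsns-2 (4610 to 4790 CPM), a log2 difference of 0.07 ± 0.13 (edgeR adjusted p = 0.994).

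S100a10 measured 1500, 1220, 1480 and 1440 CPM in tumor shRenilla. In tumor shAsns-2 it measured 1240, 1410, 1380 and 1370 CPM. The tumor libraries labelled shAsns-1 had 1820, 1540, 1610 and 1620 CPM. The last group lay above both others without overlap, yet neither difference was called (0.23 ± 0.12 against shRenilla, edgeR adjusted p = 0.141; 0.29 ± 0.12 against shAsns-2, edgeR adjusted p = 0.069, called in 4 of 17 alternatives).

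In lung, S100a10 measured 1240, 892, 1330 and 1230 CPM in shRenilla. In lung shAsns-2 it measured 1510, 1540, 1470 and 1130 CPM. In the lung libraries labelled shAsns-1 it measured 1350, 1320, 1310 and 1150 CPM. The lowest values were again those of lung shRenilla B and, within its group, lung shAsns-2 D. Lung lay below tumor without overlap in the label shAsns-1 and was not called (-0.36 ± 0.12, edgeR adjusted p = 0.0543), but was called in 6 of 17 alternatives.

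S100a11 averaged 750 ± 143, 884 ± 40.2 and 812 ± 129 CPM in tumor (shRenilla, the label shAsns-1, shAsns-2). In lung it averaged 577 ± 249, 720 ± 59.2 and 771 ± 105 CPM. The spread in lung shRenilla came from library B at 204 CPM, where the other 3 had 691 to 716 CPM. A processed pseudogene, S100a11-ps, lies on another chromosome, so the counting of S100a11 is uncertain. The largest S100a11 difference in size was 0.42 ± 0.23 (lung shAsns-2 against lung shRenilla, edgeR adjusted p = 0.625).

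**Figure D4:**
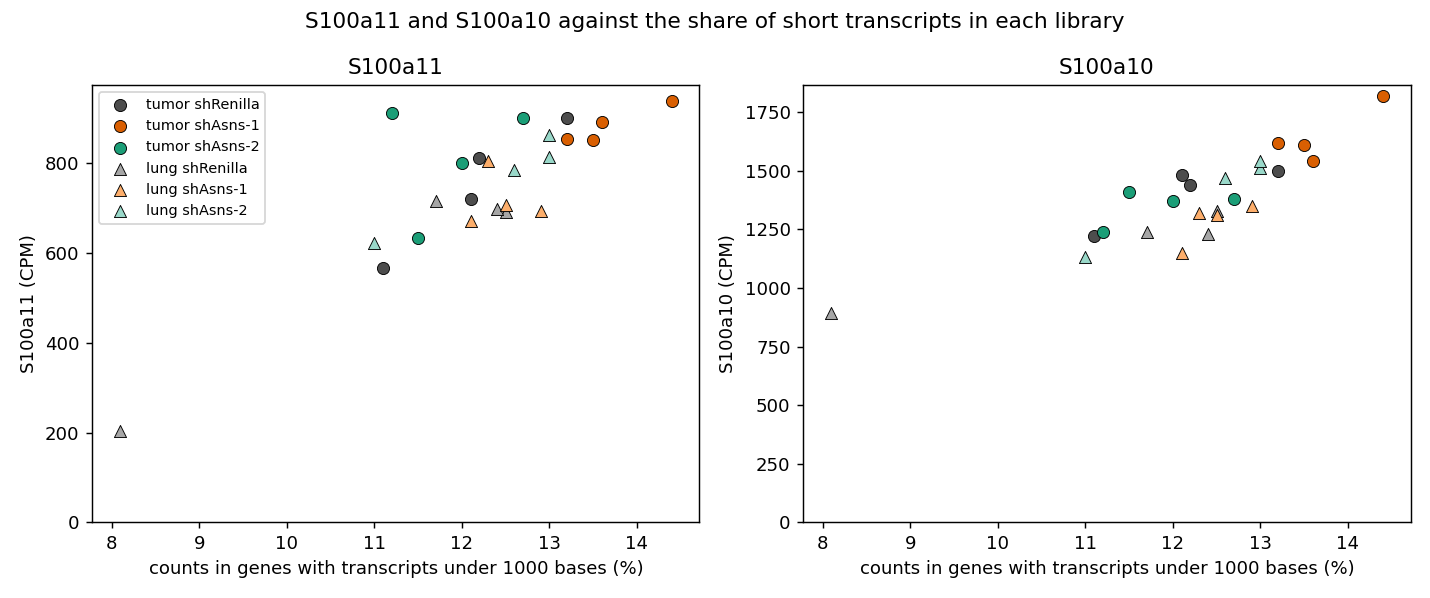
S100a11 (left) and S100a10 (right) in CPM (vertical axes) against the percentage of a library's counts in genes with transcripts under 1000 bases (horizontal axis), for 24 libraries. Lung shRenilla B, at 8.09%, is the lowest library for both genes, at 204 and 892 CPM.

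Over the 24 libraries the level of S100a10 had a Pearson correlation of 0.90 with the percentage of counts in short transcripts, and S100a11 of 0.86. Without the 2 lung libraries that stood apart these were 0.80 and 0.62. S100a1 gave 0.75 (0.80 without them), S100a4 0.65 (0.74), S100a13 0.53 (0.69), S100a6 0.50 (0.11), S100a8 0.06 (0.26), S100a14 0.25 (-0.34) and S100a16 0 (-0.35). S100 transcripts are themselves short, from 486 to 1123 bases, so all but S100a16, the longest, are part of the percentage they are set against.

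S100A14 and S100A16 are found mainly in epithelia. Their genes are neighbours in the cluster, and both were low here. S100a16 measured 6.38, 7.27, 4 and 6.31 CPM in tumor shRenilla. It measured 5.26, 6.53, 6.9 and 3.69 CPM in tumor shAsns-2. The tumor libraries labelled shAsns-1 had 3.2, 2.5, 2.25 and 0.666 CPM. This last group lay below all other tumor libraries, with library D lowest.

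In lung, S100a16 measured 2.54, 1.83, 2.62 and 3.69 CPM in shRenilla. It measured 4.21, 6.44, 3.84 and 2.1 CPM in shAsns-2. It measured 2.06, 1.79, 1.93 and 3.44 CPM in the lung libraries labelled shAsns-1. The 3 lung groups overlapped, and the shRenilla values lay below those of tumor shRenilla.

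S100a16 was lower in the tumor libraries labelled shAsns-1 than in shRenilla (-1.49 ± 0.34, edgeR adjusted p = 0.00127) and than in shAsns-2 (-1.42 ± 0.34, edgeR adjusted p = 0.00333). Both calls held in 17 of 17 alternatives, and without tumor shAsns-1 D the first difference was -1.18. S100a16 was lower in lung than in tumor with shRenilla (-1.16 ± 0.33, edgeR adjusted p = 0.0123), a call that ended with thinned counts (adjusted p = 0.111). Lung against tumor gave 0.11 ± 0.35 in the label shAsns-1 (edgeR adjusted p = 0.878) and -0.44 ± 0.33 in shAsns-2 (edgeR adjusted p = 0.357).

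S100a14 rested on 1 to 19 counts per library, 163 in all. Its mean was 0.32 ± 0.169 CPM in tumor shRenilla, 0.19 ± 0.0713 in the tumor label shAsns-1 and 0.446 ± 0.0668 in tumor shAsns-2. In lung the means were 0.143 ± 0.114, 0.213 ± 0.101 and 0.151 ± 0.0917 CPM. It was called lower in lung than in tumor with shAsns-2 (-1.56 ± 0.49, edgeR adjusted p = 0.0245), and the call ended without tumor shAsns-2 B (0.0709), without lung shAsns-2 A (0.0709) and without lung shAsns-2 D (0.0541). Its lower level in the tumor label shAsns-1 than in tumor shAsns-2 (edgeR adjusted p = 0.0452) held in 6 of 16 alternatives. This call ended without 7 of the 8 libraries left out in turn, tumor shAsns-1 B being the exception. The correlation of S100a14 with S100a16 over 24 libraries was 0.65. Carcinoma epithelium markers, lowest in tumor in the libraries labelled shAsns-1, summed to 569 ± 80.3 CPM in lung shRenilla, 453 ± 27.2 in the lung label shAsns-1 and 655 ± 183 in lung shAsns-2, and their part in the S100a14 and S100a16 differences was not tested.

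Other S100 genes in the table number 7, of which 3 passed the filter. S100a7a, the mouse relative of the psoriasin gene, had 15.7 ± 3.74 CPM in tumor shRenilla, 8.97 ± 0.312 in the tumor label shAsns-1 and 11.4 ± 2.69 in tumor shAsns-2. In lung it had 6.97 ± 1.39, 7.97 ± 1.42 and 6.65 ± 1.06 CPM. It was lower in lung than in tumor with shRenilla (-1.17, edgeR adjusted p = 1.92e-05) and with shAsns-2 (-0.76, edgeR adjusted p = 0.00325), the opposite direction to its neighbour S100a8. It was also lower in the tumor label shAsns-1 than in tumor shRenilla (-0.81, edgeR adjusted p = 0.000835). S100a3, a hair-cuticle S100 gene, was higher in the tumor label shAsns-1 (12.6 ± 0.358 CPM) than in shRenilla (9.12 ± 1.54 CPM; 0.47, edgeR adjusted p = 0.0373). That S100a3 call held in 9 of 17 alternatives and ended when any of the 8 libraries but tumor shRenilla D was left out (highest adjusted p 0.12) and with thinned counts (0.217). S100a3 was also higher than in tumor shAsns-2 (0.64, edgeR adjusted p = 0.00892), a call that held in 17 of 17 alternatives. The annotated span of S100a3 contains S100a2, which had a mean of 0.366 CPM. S100a2 was called higher in the tumor label shAsns-1 (0.487 CPM) than in tumor shAsns-2 (0.199 CPM, below the 0.354 CPM of 3 counts in the smallest library, so no fold is given; edgeR adjusted p = 0.0225). That call held in 10 of 15 alternatives and ended with DESeq2 and without label shAsns-1 A or C or shAsns-2 C or D (highest adjusted p 0.097).

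**Figure D5:**
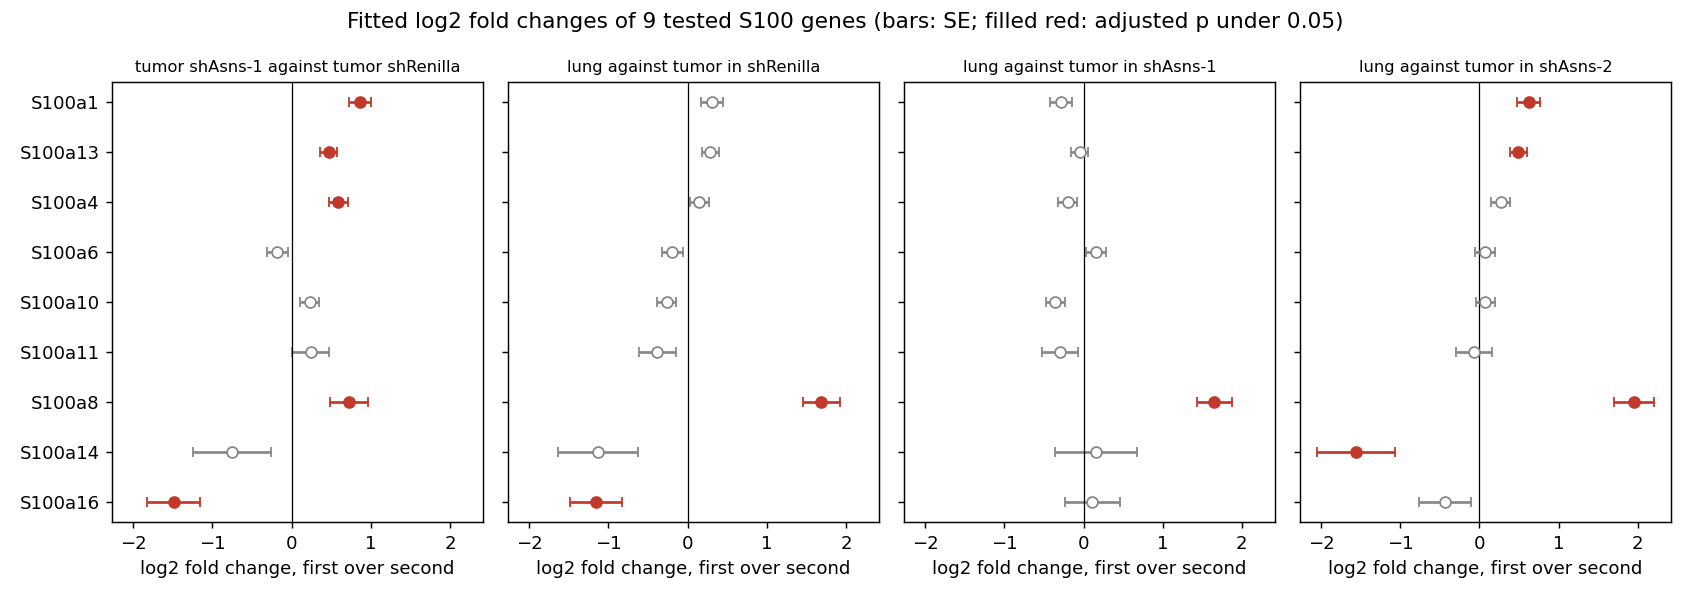
Fitted log2 fold changes (horizontal axes) of the 9 tested S100 genes (rows) in 4 comparisons, with bars for the SE and filled red points for adjusted p under 0.05. S100a14 is drawn although most of its group means lie under 0.354 CPM, the level of 3 counts in the smallest library. S100a8 lies near 1.7 to 2 in each of the 3 comparisons of lung with tumor, and S100a1, S100a4, S100a8 and S100a13 lie to the right of 0 with S100a16 to the left in the tumor comparison.

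By comparison, the counts were as follows, each read against all 12625 tested genes. Between the tumor libraries labelled shAsns-1 and tumor shRenilla, 5 of 9 S100 genes were called, 4 higher and 1 lower, where 33.9% of all tested genes were called (16.2% higher, 17.7% lower). Their median log2 fold change was 0.24, against -0.01 over all tested genes. Between the tumor libraries labelled shAsns-1 and tumor shAsns-2, 6 of 9 were called, 4 higher and 2 lower, where 27.1% of all tested genes were (12.1% higher, 15% lower), with medians of 0.29 and -0.02. These comparisons share the libraries labelled shAsns-1. Between tumor shAsns-2 and tumor shRenilla edgeR called 0 of 9, where 0.0634% of all genes were called (0.0396% higher, 0.0238% lower); 0 had an unadjusted p under 0.05, and DESeq2 and limma called 0.

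For lung against tumor, 2 of 9 S100 genes were called in shRenilla, where 21.8% of all genes were, 12% higher and 9.82% lower (S100a8 higher, S100a16 lower; median -0.19 against 0 for all genes). In the libraries labelled shAsns-1, 1 of 9 was called, where 8.55% of genes were, 6% higher and 2.54% lower (S100a8 higher; median -0.05 against 0.03). In shAsns-2, 4 of 9 were called, where 20.9% of genes were, 10.1% higher and 10.9% lower (S100a1, S100a8 and S100a13 higher, S100a14 lower; median 0.07 against 0.01). In lung the hairpin comparisons gave 0 of 9 with edgeR. For the label shAsns-1 against shRenilla (0.206% of genes called, 0.0713% higher and 0.135% lower), 2 had an unadjusted p under 0.05, DESeq2 called 0 and limma 1. For shAsns-2 against shRenilla (0% of genes called), 1 had an unadjusted p under 0.05, DESeq2 called 0 and limma 3. For the label shAsns-1 against shAsns-2 (0.261% of genes called, 0.143% higher and 0.119% lower), 2 had an unadjusted p under 0.05, DESeq2 called 1 and limma 3. The difference between sites called 1 of 9 for the label shAsns-1, S100a1, where 14.2% of genes were called (6.96% with a positive difference, 7.27% with a negative difference). For shAsns-2 it called 0 of 9, where 0% of genes were, with 0 at an unadjusted p under 0.05 and 0 by DESeq2 and limma.

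Partners and receptors of S100 proteins numbered 16 tested genes. In the tumor label shAsns-1 against shRenilla, 2 of them were called higher and 2 lower, where 16.2% of all tested genes were higher and 17.7% lower (list median -0.05, all genes -0.01). Alternatives gave 1 to 3 higher and 2 to 6 lower. Anxa5, an annexin gene, rose from 458 to 769 CPM (0.75, edgeR adjusted p = 0.00291) and Tlr4, a receptor for extracellular S100A8, from 31.8 to 41.5 CPM (0.38, edgeR adjusted p = 0.0457, called in 9 of 17 alternatives and lost without any of 7 of its 8 libraries, highest 0.111). Ahnak, for a giant scaffold bound by S100A10, fell from 1150 to 762 CPM (-0.60, edgeR adjusted p = 0.00599) and Mcam, for an adhesion molecule, from 8.48 to 3.7 CPM (-1.19, edgeR adjusted p = 0.000217). Anxa2, the partner of S100A10, was higher in lung than in tumor in the label shAsns-1 (1380 against 970 CPM, 0.51, edgeR adjusted p = 0.029) and in shAsns-2 (1420 against 1060 CPM, 0.43, edgeR adjusted p = 0.0364), while S100a10 was called in neither. Each of these Anxa2 calls held in 11 of 17 alternatives, and the one in shAsns-2 ended when the other groups were dropped from the fit. Leaving out any of 6 libraries (label shAsns-1) or 5 (shAsns-2) of 8 also ended the call; the highest adjusted p was 0.106 in the label shAsns-1 and 0.137 in shAsns-2. In lung against tumor the partner list had 3 higher and 2 lower in shRenilla, 3 and 0 in the label shAsns-1, and 2 and 0 in shAsns-2, with list medians of 0.01, 0.17 and -0.01 where those of all tested genes were 0, 0.03 and 0.01 and 21.8%, 8.55% and 20.9% of them were called. Under alternatives the partners called in either direction ran from 2 to 6 in shRenilla, 1 to 8 in the label shAsns-1 and 0 to 6 in shAsns-2.

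The plasminogen genes act on the protease that S100A10 and annexin A2 hold at the surface. In the tumor label shAsns-1 against shRenilla 1 of 8 tested was higher and 3 were lower, with all tested genes at 16.2% and 17.7% (list median -0.33, all genes -0.01). Plau, for urokinase, fell from 70.9 to 25.5 CPM (-1.47, edgeR adjusted p = 6.02e-07). Serpinb2, for an inhibitor of plasminogen activators, fell from 7.43 to 2.87 CPM (-1.37, edgeR adjusted p = 0.000491), and Serpine2 rose from 70.2 to 219 CPM (1.64, edgeR adjusted p = 1.28e-05). Serpine2 was also higher in lung than in tumor under all 3 hairpins, by 3.09 in shRenilla, 1.20 in the label shAsns-1 and 2.15 in shAsns-2 on the log2 scale. In lung against tumor this list had 2 higher and 2 lower in shRenilla and 4 and 0 in the label shAsns-1. In shAsns-2 it had 1 and 0. Its medians were 0.06, 0.74 and 0.09, where all tested genes had 0, 0.03 and 0.01 and 21.8%, 8.55% and 20.9% of them were called. Alternatives gave 2 to 5 called in the label shAsns-1 and 1 to 4 in shAsns-2.

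A list of genes chosen around the regulation of S100a8 and S100a9 had 15 tested. Not every gene in it, Lcn2 among them, is a regulator of that pair. In the tumor label shAsns-1 against shRenilla 3 were higher and 2 lower, beside 16.2% and 17.7% of all tested genes (list median -0.32, all genes -0.01). Cebpb, for a transcription factor of myeloid and stress genes, rose from 20.7 to 43 CPM (1.06, edgeR adjusted p = 2.36e-06). Lcn2, for lipocalin, was called higher (13 counts in all of tumor shRenilla against 52, edgeR adjusted p = 0.00539), with no fold given because the shRenilla mean of 0.113 CPM lies under the level of 3 counts in the smallest library. Osmr, for a cytokine receptor, rose from 6.88 to 9.2 CPM (0.42, edgeR adjusted p = 0.0376), a call held in 9 of 17 alternatives and lost without any of 6 of the 8 libraries and with thinned counts (highest 0.528). The cytokine genes Il1a (-2.60, edgeR adjusted p = 1.81e-09) and Lif (-1.64, edgeR adjusted p = 1.44e-07) fell. In lung against tumor the list had 4 higher and 2 lower in shRenilla and 5 and 0 in the label shAsns-1. In shAsns-2 it had 0 and 3. The list medians were 0.02, 0.50 and -0.17, where all tested genes had 0, 0.03 and 0.01 and 21.8%, 8.55% and 20.9% of them were called. Alternatives gave 3 to 7, 0 to 7 and 2 to 7 called in the same order, the 0 with thinned counts. Cebpb was higher in lung in shRenilla (0.80, edgeR adjusted p = 0.000129) and not called in the label shAsns-1 (0.15, edgeR adjusted p = 0.518). Nor was Cebpb called in shAsns-2, where S100a8 was higher in lung.

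Other EF-hand calcium sensors gave 4 higher and 1 lower of 14 tested in the tumor label shAsns-1 against shRenilla (list median 0.26, all genes -0.01), with 16.2% and 17.7% of all tested genes called. The offsets gave 8 and 1, limma 8 and 2, and thinned counts 3 and 1. Calm2 (0.59, edgeR adjusted p = 0.0122) and Calm3 (0.47, edgeR adjusted p = 0.0163, called in 13 of 17 alternatives and not without label shAsns-1 B or shRenilla B or D; highest 0.146), which encode calmodulin, rose, as did Capns1, for the small calpain subunit (0.71, edgeR adjusted p = 0.00408). Calu, for calumenin, fell (-0.45, edgeR adjusted p = 0.0177, called in 14 of 17 and not without label shAsns-1 B or D or shRenilla A; highest 0.0687). In lung against tumor the list had 1 called higher in shRenilla, 1 lower in the label shAsns-1 and 1 higher in shAsns-2. Alternatives gave 0 to 2, 1 to 5 and 0 to 7 of the list called. The list medians were 0.14, -0.14 and 0.13, where all tested genes had 0, 0.03 and 0.01 and 21.8%, 8.55% and 20.9% of them were called.

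Tested genes within 250 kb of an S100 gene that are not S100 genes numbered 9, of which 2 were higher and 2 lower in the tumor label shAsns-1 against shRenilla (list median 0.11, all genes -0.01), next to 16.2% and 17.7% of all tested genes. Alternatives gave 2 to 5 called. Snapin, for a synaptic-vesicle adaptor (0.65, edgeR adjusted p = 0.000399), and Dennd4b (0.54, edgeR adjusted p = 0.0204, called in 13 of 17 alternatives and not without label shAsns-1 B or shRenilla A or D; highest 0.139) rose. Ilf2, for an RNA-binding protein (-0.36, edgeR adjusted p = 0.00923), and Tchh, for trichohyalin (-1.01, edgeR adjusted p = 0.00085, not called with thinned counts at 0.202), fell. In lung against tumor these neighbours had 1 higher and 1 lower in shRenilla and 0 and 1 in the label shAsns-1. In shAsns-2 they had 1 and 1. Their medians were -0.02, 0.03 and -0.05, where all tested genes had 0, 0.03 and 0.01 and 21.8%, 8.55% and 20.9% of them were called.

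The genes whose levels followed each S100 gene most closely over the 24 libraries, among 10124 genes compared, differed from member to member. They are given as descriptions, since libraries share depth and composition. S100a1 was closest to Ndufaf3, Gchfr and Dynlrb1 (highest Pearson r 0.97) and S100a13 to Anapc13, Mthfs and Gabarap (0.97). S100a10 was closest to Uqcrq, Rpl27a and Uqcr10 (0.97), S100a11 to Rpl23a, Mrp63 and Rpl19 (0.97) and S100a6 to Rplp2 and Gm6402 (0.89). S100a4 was closest to Kctd15, Bok and Zfp865 (0.89). S100a8 was closest to Uggt2, Casp4 and Smox (0.91), and S100a14 and S100a16 both had Fdps and Krt19 among their 3 closest genes (Fdft1 0.83 for S100a14, Fdps 0.82 for S100a16). Without the 2 lung libraries that stood apart, r was 0.94 for S100a10 with Uqcrq and 0.88 for S100a11 with Rpl23a. It was then 0.85 for S100a6 with Rplp2 and 0.76 for S100a14 with Fdft1. S100a1 with Ndufaf3 and S100a13 with Anapc13 stayed at 0.97.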

How the data were processed

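RNA-seq libraries (total RNA by Trizol, NuGEN Ovation RNAseq V2, per the labels' protocols) were deposited by the authors as raw counts per gene symbol. Bowtie2, HTSeq and mm10 come from the submitters' processing notes, without versions. Annotation, strand setting and filters are not given in the sources used here. Counts were fitted across all 24 libraries with edgeR 4.0.16 (quasi-likelihood, robust; R 4.3.3), 1 mean per group, TMM scaling and filterByExpr, which kept 12625 genes. Calls were at a Benjamini-Hochberg adjusted p under 0.05 over all tested genes, and the SE was derived from the log2 fold change and its F statistic (absolute fold change divided by root F). CPM uses TMM-scaled library sizes, and log2 CPM for correlations a prior count of 2. Alternative fits used DESeq2 1.42.0, DESeq2 size factors within edgeR, limma 3.58.1 (library weights), all genes unfiltered, the compared groups alone, the replicate letter as a block, counts thinned to the smallest total, the outlying libraries removed together, and single libraries removed. Length and GC content offsets, and the alternatives for list genes, were added after seeing the data. List ranges leave out the fits without single libraries. Transcript lengths came from GENCODE M21 (94.4% of tested genes), positions and start windows from RefSeq GRCm38.p6 (8 of 10 S100 genes have a window). The S100 genes and the gene lists were chosen with earlier results of these data known. Genes named were the S100 genes, called members of the lists, genes within 250 kb, and the 3 tested genes of highest correlation with each S100 gene. A few genes that these rules name are not reported here. Figures used matplotlib 3.10.9.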

Additional observations from a re-analysis of the deposited data

Results flagged for a closer look

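Single libraries stood apart from the other 3 of their group in 5 of the 72 groups examined (12 tested S100 genes in 6 groups), where chance gives about 1 in 20. S100a11 was 204 CPM in lung shRenilla B, with the others at 691 to 716 CPM. S100a6 was 3610 CPM in tumor shAsns-2 A, the library with the lowest total, with the others at 4700 to 4780 CPM. S100a16 was 3.44 CPM in the lung library labelled shAsns-1 D (others 1.79 to 2.06 CPM), and S100a7a was 10.1 CPM in the lung library labelled shAsns-1 A (others 7.01 to 7.46 CPM). S100a3 was 7.46 CPM in lung shAsns-2 D (others 10.7 to 11.3 CPM).

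The difference between the label shAsns-1 and shRenilla was not the same at both sites for 2 S100 genes, by the interaction term in edgeR. For S100a1 it was smaller in lung than in tumor by a log2 difference of -0.59 (adjusted p = 0.0472, called in 10 of 25 alternatives). For S100a7a the term was 1 (adjusted p = 0.00812), called in 25 of 25 alternatives. S100a7a averaged 8.97 CPM in the label shAsns-1 and 15.7 CPM in shRenilla in tumor, and 7.97 and 6.97 CPM in lung.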

How the results depend on the processing

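Of 26 differences of single S100 genes that were called, 408 of 454 values under an alternative stayed called, 46 lost the call and 0 reversed. Of 106 differences not called, the 19 with an unadjusted p under 0.05 were followed, of which 294 of 341 values stayed so, 47 gained a call and 0 reversed. The number of S100 genes called moved by over 1.5 times in these comparisons. For lung label shAsns-1 against shRenilla (0) limma gave 1, and for lung shAsns-2 against shRenilla (0) limma gave 3. For the lung label shAsns-1 against shAsns-2 (0), DESeq2, no filter, the replicate block, the outlying libraries left out together and the offsets each gave 1, limma 3, and leaving out 1 library 0 to 1. For lung against tumor in shRenilla (2), limma gave 5, thinned counts 1, the outlying libraries left out and the offsets 4 each, and leaving out 1 library 2 to 4, with 4 without lung shRenilla B. For lung against tumor in the label shAsns-1 (1), DESeq2 and its size factors gave 2 each, limma, the offsets and the outlying libraries left out 3 each, and only the compared groups 4. For the difference between sites of the label shAsns-1 (1), limma gave 4, thinned counts 0, the offsets and the outlying libraries left out 2 each, and leaving out 1 library 0 to 1. The cause was not tested.

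Counts over all genes also moved: between the tumor label shAsns-1 and shRenilla from 2537 (thinned counts) to 5878 (limma) around 4278, for lung against tumor from 1364 to 4595 around 2749 in shRenilla, from 366 to 4116 around 1079 in the label shAsns-1 and from 1377 to 5041 around 2642 in shAsns-2. Between the tumor label shAsns-1 and tumor shAsns-2 they ran from 1966 to 5005 around 3424, and for the difference between sites from 814 to 3676 around 1797. Lung hairpin comparisons ran from 1 to 758 around 26 (label shAsns-1 against shRenilla), from 0 to 1548 around 0 (shAsns-2 against shRenilla) and from 5 to 1924 around 33 (label shAsns-1 against shAsns-2), and tumor shAsns-2 against shRenilla from 3 to 50 around 8. Leaving out 1 library gave 412 to 794 for lung against tumor in the label shAsns-1.

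Same-lettered libraries did not regularly deviate together (correlations from -0.41 to 0.35, and 0 to 2 of 4 letters best with their own). With 4 libraries per group this cannot decide whether a letter marks a shared source, so pairing by letter remains unknown. The replicate block gave 5 calls in the tumor label shAsns-1 against shRenilla and 5 against shAsns-2, the S100a14 call being lost (adjusted p = 0.0654). With the block, lung S100a8 in the label shAsns-1 against shAsns-2 was called (adjusted p = 0.0215). Low counts limit S100a8, S100a14 and S100a16, and S100a9 could not be tested at this depth.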
